A study of Mus musculus with 16 samples.

Results

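Scgb3a2, Bpifa1 and Pon1, 3 transcripts whose products are released into the airway lining or into blood, were followed through 16 Affymetrix arrays of whole mouse lung. They were chosen by name because they fell in BALB/c lung after allergen, so every value of that contrast, and of the contrasts built on it, is a description here and carries no test. Each was read by 1 probe set. They are 3 of the 9866 genes that carried a name, and all 3 passed the filter on low values that left 7276 genes in the fits. Arrays labelled BALB-RAG used other samples than the choice and gave the one treatment comparison that could be tested. On those arrays none of the 3 transcripts passed the test after ovalbumin.

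The 4 groups held 4 arrays each. They were lung of the line titled BALB-RAG exposed to ovalbumin (OVA), a protein of egg white that served as allergen, BALB-RAG lung after phosphate-buffered saline (PBS), BALB/c lung after OVA and BALB/c lung after PBS. Lungs were taken on day 22, and the last exposure lay 1 day earlier. The labels give no allele for BALB-RAG, no age or sex and no dose or route of the allergen, and do not say whether a replicate is an animal of its own. The p-values here therefore cover the scatter among these arrays, part or all of which may be technical. As background, mice that lack a Rag gene cannot assemble antigen receptors and have no mature T or B cells.

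Scgb3a2 is a small secretoglobin released by club cells, the secretory cells that line the conducting airways. Its gene is a known target of the lung transcription factor Nkx2-1. Bpifa1, also called SPLUNC1, is a secreted surfactant-like protein of airway epithelium with a lipid-binding fold, known for host defence and for control of airway surface liquid. Pon1 is a calcium-dependent esterase that travels on high density lipoprotein; liver is its best known source, and it is known for hydrolysing oxidised lipids and organophosphates. In experimental asthma the airway lining is known to gain mucous goblet cells, partly from club cells.

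The series matched its tissue label in that the alveolar type 2 list, which holds surfactant genes, lay between 10.90 and 11.62 on the log2 intensity scale on all 16 arrays. Part of the BALB-RAG titles went against their lymphocyte transcripts. The T cell list (13 genes) read 3.41, 4.95, 3.67 and 3.59 on replicates 1 to 4 of BALB-RAG after OVA and 4.22 to 4.63 on the 4 BALB-RAG PBS arrays. It read 4.22 to 4.61 on the BALB/c PBS arrays. The B cell list (14 genes) read 3.68, 6.61, 3.71 and 3.86 in BALB-RAG after OVA and 5.18 to 5.65 on the BALB-RAG PBS arrays. On the BALB/c PBS arrays it read 5.60 to 6.39. Replicate 2 of BALB-RAG OVA and all 4 BALB-RAG PBS arrays thus carried lymphocyte transcripts, groups were kept as titled, and results on these arrays are given with and without replicate 2.

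Sequence upstream of a start site is shown for Bpifa1 and Pon1, since the promoter set used held no entry for Scgb3a2. Whether any motif in it bears on the transcription factors described below was not tested. Both come from the RefSeq promoter table of GRCm38.p6 and end at the base before the outermost annotated start, counted as position -1. Bpifa1 is chr2:154142630-154142879 on the plus strand and Pon1 is chr6:5193988-5194196 on the minus strand, both written 5′ to 3′. Capitals mark TATTTAC, a forkhead core, and TATAAA, the TATA box.
Bpifa1: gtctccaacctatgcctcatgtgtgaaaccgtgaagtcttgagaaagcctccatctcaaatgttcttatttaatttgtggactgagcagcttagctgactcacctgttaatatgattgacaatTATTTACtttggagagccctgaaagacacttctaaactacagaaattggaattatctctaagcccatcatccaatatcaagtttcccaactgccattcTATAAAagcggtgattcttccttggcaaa
Pon1: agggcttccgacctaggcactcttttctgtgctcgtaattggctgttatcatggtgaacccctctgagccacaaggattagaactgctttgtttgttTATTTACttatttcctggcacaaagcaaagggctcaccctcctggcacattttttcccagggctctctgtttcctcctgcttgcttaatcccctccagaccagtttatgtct
Each stretch held 1 TATTTAC on the printed strand, at -127 to -121 for Bpifa1 and at -112 to -106 for Pon1. Of 32851 RefSeq promoters, 2.727% held TATTTAC on either strand in a window of 250 bases and 2.365% in one of 209 bases. Bpifa1 also held TATAAA at -29 to -24, a motif that 12.37% of promoters had in 250 bases. It held CTCAAG, a core read by Nkx2-1, on the opposite strand at -213 to -208, as did 13.33% of promoters. TGTTTAC, the other common forkhead core, gave no match in either stretch (3.166% of promoters in 250 bases), and CTCAAG and TATAAA gave none in Pon1. The motifs were chosen after the sequences were seen, all were searched on both strands, and a match is a description of letters only.

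Scgb3a2 stood within a narrow range in 3 groups and lower in the fourth. Its log2 intensity was 13.26, 13.16, 13.21 and 13.14 on replicates 1 to 4 of BALB-RAG after OVA and 13.23, 13.16, 13.12 and 13.05 in BALB-RAG after PBS. In BALB/c it was 12.06, 11.87, 12.41 and 12.15 after OVA and 13.10, 13.10, 12.91 and 12.92 after PBS. The 4 BALB/c OVA arrays lay below the other 12, which spanned 12.91 to 13.26. Group means were 13.19 ± 0.05 and 13.14 ± 0.08 in BALB-RAG after OVA and PBS, and 12.12 ± 0.23 and 13.01 ± 0.10 in BALB/c after OVA and PBS (SD, n = 4). Neighbours among the 3 upper groups overlapped in their ranges, but BALB-RAG OVA (13.14 to 13.26) lay above BALB/c PBS (12.91 to 13.10) with no overlap. No share of all genes was computed for that comparison, and nothing is read from it.

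Bpifa1 was scattered widely in BALB-RAG after OVA and was highest in BALB/c after PBS. It read 11.14, 12.62, 9.61 and 10.96 on replicates 1 to 4 of BALB-RAG after OVA and 10.76, 10.32, 10.05 and 10.67 in BALB-RAG after PBS. In BALB/c it read 9.58, 10.49, 9.49 and 10.41 after OVA and 12.75, 12.34, 12.81 and 11.49 after PBS. Of the 12 arrays outside BALB/c PBS the 1 above the lowest BALB/c PBS array was replicate 2 of BALB-RAG OVA. Means were 11.09 ± 1.23 and 10.45 ± 0.33 in BALB-RAG after OVA and PBS, and 9.99 ± 0.53 and 12.35 ± 0.61 in BALB/c after OVA and PBS (SD, n = 4). In the order of the means, BALB/c PBS, BALB-RAG OVA, BALB-RAG PBS and BALB/c OVA, each neighbour overlapped the next.

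Pon1 had the deepest fall. Its log2 intensity was 9.43, 10.18, 9.40 and 9.37 on replicates 1 to 4 of BALB-RAG after OVA and 8.96, 9.93, 8.98 and 8.92 in BALB-RAG after PBS. In BALB/c it was 6.48, 6.22, 7.28 and 7.28 after OVA and 10.03, 10.18, 9.84 and 9.58 after PBS. The 4 BALB/c OVA arrays stood apart below all others, and replicate 2 stood above its group in both BALB-RAG groups. Means were 9.60 ± 0.39 and 9.20 ± 0.49 in BALB-RAG after OVA and PBS, and 6.81 ± 0.55 and 9.91 ± 0.26 in BALB/c after OVA and PBS (SD, n = 4). The ranges of the 3 upper groups overlapped from neighbour to neighbour.

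**Figure D1:**
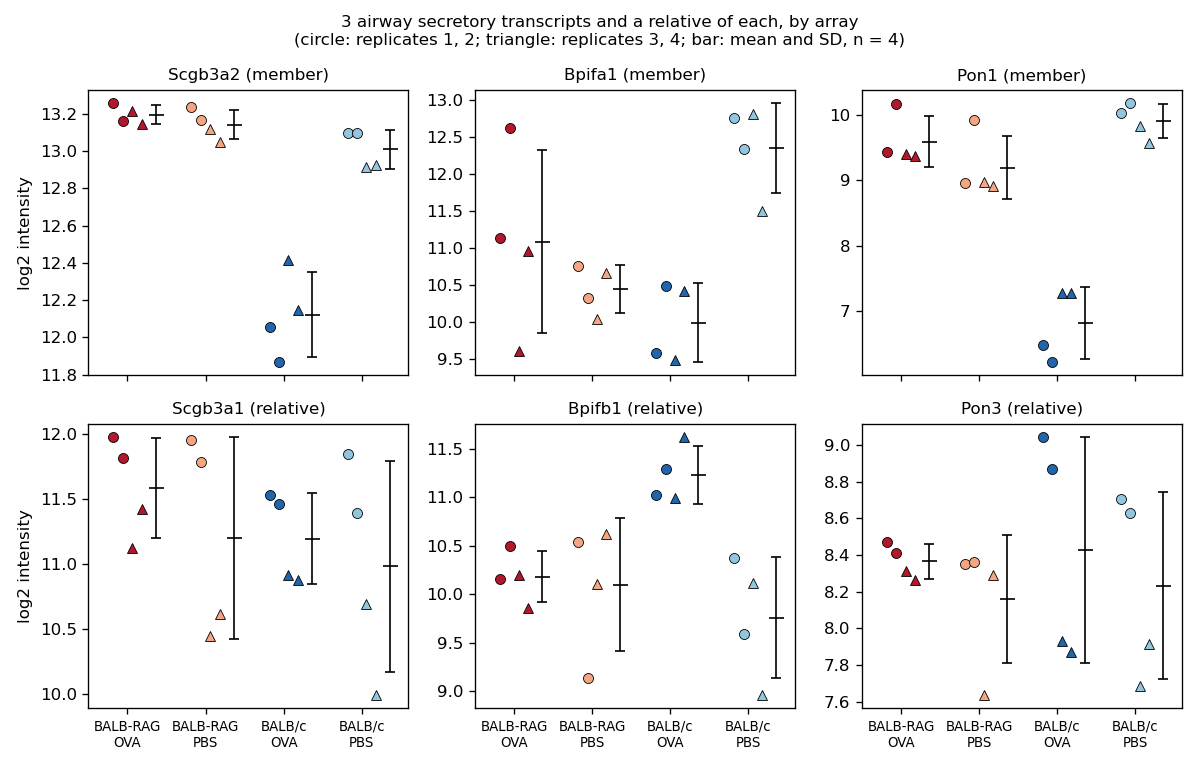
Log2 intensity (y axis) of Scgb3a2, Bpifa1 and Pon1 (upper row) and of 1 relative of each, Scgb3a1, Bpifb1 and Pon3 (lower row), on each array of the 4 groups (x axis); circles are replicates 1 and 2, triangles replicates 3 and 4, and bars the mean and SD (n = 4). Scgb3a2 and Pon1 were low in BALB/c OVA alone, Bpifa1 was high in BALB/c PBS, and Bpifb1 was highest in BALB/c OVA.

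In the contrast that chose them, OVA minus PBS in BALB/c, Pon1 differed by -3.09 ± 0.28, Bpifa1 by -2.36 ± 0.48 and Scgb3a2 by -0.89 ± 0.12 (log2, SE, n = 4 per group). PBS lungs thus had 8.54 times the Pon1 intensity of OVA lungs, 5.12 times the Bpifa1 intensity and 1.85 times the Scgb3a2 intensity. All 4 OVA arrays lay below all 4 PBS arrays for 3 of 3 members, as they did for 9.24% of the 7276 genes, and nothing is read from that count since the contrast made the choice. Ranked by size among all differences below 0, Pon1 was at position 1, Bpifa1 at 7 and Scgb3a2 at 232. Since whole lung was measured, fewer cells of a type and less RNA per cell cannot be told apart.

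Replicate numbers divided the BALB/c response of Pon1 and Scgb3a2. In replicates 1 and 2 OVA minus PBS was -3.76 for Pon1 and -1.13 for Scgb3a2, and in replicates 3 and 4 it was -2.43 and -0.64. Bpifa1 gave -2.51 and -2.20. The lower values of Pon1 and Scgb3a2 lay on OVA replicates 1 and 2, which also had the lower club cell list level (9.21 and 9.04, against 9.52 and 9.57 on replicates 3 and 4) and the higher macrophage list level (9.70 and 9.85, against 9.34 and 8.94). The split was not particular to those lists. The alveolar type 1 list was also lower on OVA replicates 1 and 2 (10.06 and 10.06, against 10.42 and 10.57). The eosinophil list was higher there (6.61 and 6.97, against 6.00 and 5.83), as was the B cell list, while the goblet cell list did not divide this way. Whether the response differed between these pairs of replicates was not tested, nor was the part of other cells in it.

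OVA was compared with PBS on arrays labelled BALB-RAG, with groups kept as titled. The PBS arrays carried more lymphocyte transcripts than OVA replicates 1, 3 and 4. An effect of the exposure and a difference in line or label therefore cannot be told apart here. Without OVA replicate 2, 42 genes were called (limma), among them 6 of 14 B cell and 3 of 13 T cell list genes, all lower after OVA. Scgb3a2 differed by 0.05 ± 0.12 (log2, SE, n = 4 per group; limma, adjusted p = 0.995, exact two-sided permutation p = 0.314), with a 95% interval of -0.21 to 0.31. Bpifa1 differed by 0.64 ± 0.48 (limma adjusted p = 0.856, exact permutation p = 0.429; -0.41 to 1.68). Pon1 differed by 0.40 ± 0.28 (limma adjusted p = 0.844, exact permutation p = 0.371; -0.22 to 1.02). Thus 0 of 3 members were called, against 0.165% of all genes (12 of 7276), and the ranges of OVA and PBS arrays overlapped for each, while they did not for 4.62% of all genes. A fall within these bounds is not shown to be missing.

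Replicate 2 carried part of these numbers. Without BALB-RAG OVA replicate 2, which held lymphocyte transcripts, the differences were 0.06 for Scgb3a2, 0.12 for Bpifa1 and 0.21 for Pon1 (limma, adjusted p = 0.981 for Bpifa1 and 0.930 for Pon1). With each array left out in turn Bpifa1 ranged from 0.12 to 1.13 and Pon1 from 0.21 to 0.64, the last without PBS replicate 2. Within replicates 3 and 4 the difference of Bpifa1 was -0.07, against 1.34 within replicates 1 and 2.

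With replicate 2 left out of both BALB-RAG groups, Pon1 became the most even of the 3 transcripts there. It read 9.37 to 9.43 on the 3 OVA arrays and 8.92 to 8.98 on the 3 PBS arrays, means of 9.40 ± 0.03 and 8.95 ± 0.03 (SD, n = 3). All 3 OVA arrays then lay above all 3 PBS arrays, as 11.7% of all genes did in one direction or the other. The difference of 0.45 ± 0.26 was not called (limma, adjusted p = 0.778), and 3 against 3 arrays cannot give an exact permutation p under 0.1. This reading was added after the values were seen.

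Put side by side, the responses of BALB-RAG and BALB/c, which share no array, differed by 3.49 ± 0.40 for Pon1, 2.99 ± 0.68 for Bpifa1 and 0.94 ± 0.17 for Scgb3a2 (log2, BALB-RAG response minus BALB/c response, SE). These are descriptions, since the BALB/c contrast chose the genes.

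The lines were also set side by side after each exposure, as a description, since the BALB/c arrays chose the genes. After PBS, BALB-RAG minus BALB/c was -1.90 for Bpifa1, whose 2 sets of arrays did not overlap, so BALB/c PBS lungs had 3.73 times the intensity. It was -0.71 for Pon1 and 0.13 for Scgb3a2, both with overlapping ranges. After OVA, BALB-RAG minus BALB/c was 2.78 for Pon1 and 1.07 for Scgb3a2, with no overlap, and 1.09 for Bpifa1, with overlap. The share of all genes without overlap between the lines was not computed, so nothing is read from these separations. By limma (adjusted p under 0.05) 3.90% of all genes differed between the lines after PBS and 23.8% after OVA. Bpifa1 averaged 10.45 in BALB-RAG after PBS, beside 9.99 in BALB/c after OVA and 12.35 in BALB/c after PBS.

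Replicates 3 and 4 were set against replicates 1 and 2 within the 4 groups, a contrast that the choice did not use. Of all genes 38.1% were called, and of the 3 members 0. Scgb3a2 differed by -0.002 ± 0.08 (limma, adjusted p = 0.988, exact permutation p = 0.986), Pon1 by -0.09 ± 0.20 (0.745, exact 0.665) and Bpifa1 by -0.56 ± 0.32 (0.174, exact 0.137). The contrast averages over the groups, so opposite shifts cancel in it. From replicates 1 and 2 to 3 and 4, Pon1 went from 6.35 to 7.28 in BALB/c OVA. It went down in the other groups (BALB/c PBS 10.11 to 9.71, BALB-RAG OVA 9.81 to 9.39, BALB-RAG PBS 9.44 to 8.95). Scgb3a2 went from 11.96 to 12.28 in BALB/c OVA and was lower on replicates 3 and 4 in each other group. A value near 0 thus does not show that a member was alike on both pairs. The labels do not say what the numbers stand for. The relatives Scgb3a1 (-0.96 ± 0.14, limma adjusted p = 9.35e-05) and Pon3 (-0.62 ± 0.13, adjusted p = 0.00171) were called, lower on replicates 3 and 4.

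No close relative of the 3 genes was called lower in BALB/c. Scgb3a1, the other secretoglobin of family 3, read 10.88 to 11.53 after OVA and 9.99 to 11.85 after PBS, a difference of 0.21 ± 0.40 (limma, adjusted p = 0.805). Pon3, a lactonase whose gene is next to Pon1 on chromosome 6 in RefSeq, with 0 protein-coding genes between them, read 7.87 to 9.05 after OVA and 7.68 to 8.70 after PBS, a difference of 0.20 ± 0.29 (adjusted p = 0.742). Bpifb1, which has the same fold as Bpifa1 and lies near it on chromosome 2 with 1 protein-coding gene between them, rose. It read 10.99 to 11.63 after OVA and 8.96 to 10.38 after PBS, with no overlap, a rise of 1.47 ± 0.33 (limma, adjusted p = 0.00574).

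Bpifb1 and Bpifa1 thus had opposite signs in BALB/c. Bpifb1 is no member, but its test used the same BALB/c arrays that chose Bpifa1. The gene lists were also drawn up with earlier results of these data known. On arrays labelled BALB-RAG Bpifb1 differed by 0.08 ± 0.33 (limma, adjusted p = 0.999), and the difference of its responses, BALB-RAG minus BALB/c, was -1.39 ± 0.46 (adjusted p = 0.0771), past the threshold in 2 of the 16 fits that left out 1 array. Pltp, a lipid transfer protein of the same fold, differed by -0.22 ± 0.16 in BALB/c (adjusted p = 0.422). Bpifb5 was near the background level of log2 4. Bpifa2, Bpifb2, Bpifb9b, Scgb1b27, Scgb2b27 and Pon2 were under it on all 16 arrays.

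Measured genes of the club cell list, drawn up for the cells that make Scgb3a2, were mostly lower in BALB/c after OVA. Of the 40 genes on the list 28 had a realigned label, and the club cell markers Scgb1a1 and Cyp2f2 had none. Scgb3a1 (0.21 ± 0.40, limma, adjusted p = 0.805) and Cldn10 (-0.60 ± 0.37, adjusted p = 0.329) were measured and not called. Of 26 measured list members without Scgb3a2, 14 fell and 2 rose, with a median of -0.69, against 6.78% of all genes falling, 8.73% rising and a median near 0. The 4 with the smallest p were Gstm1, Gsta3, Gsta2 and Fmo1. Gstm1 fell by 1.49 ± 0.16 (limma, adjusted p = 1.47e-05), Gsta3 by 1.87 ± 0.27 (adjusted p = 0.000198) and Gsta2 by 1.76 ± 0.25 (adjusted p = 0.000203), all glutathione transferases. The flavin monooxygenase Fmo1 fell by 1.44 ± 0.23 (adjusted p = 0.000452), and the carbonyl reductase Cbr2, abundant in club cells and named for its likeness to Scgb3a2, by 0.54 ± 0.13 (adjusted p = 0.00818).

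The 2 rises were the glutathione transferase Gsto1 (0.89 ± 0.25) and the matrix protein Chad (0.75 ± 0.18). On arrays labelled BALB-RAG 0 of the 26 were called, with a median of 0.21, against a median of 0.02 over all genes. The responses of the lines differed for 12 of the 26, each higher in BALB-RAG, against 8.49% of all genes in either direction. Several of these enzymes are also made in liver and other lung cells, so the list is not exclusive to club cells.

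**Figure D2:**
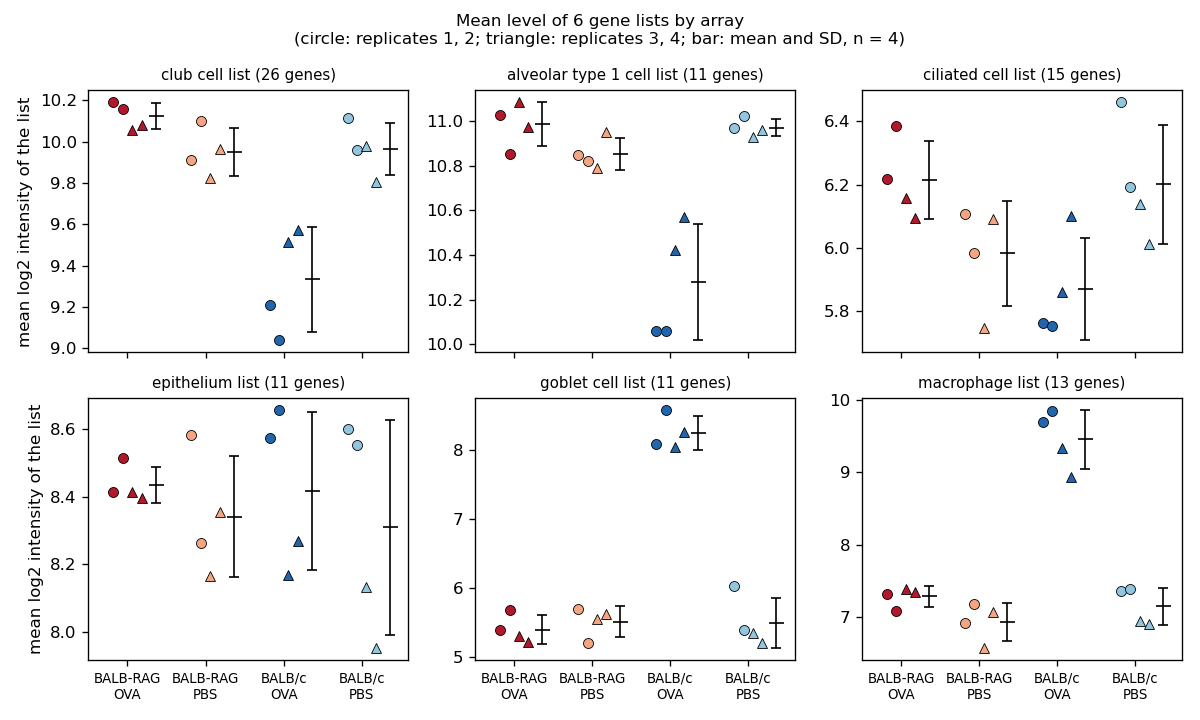
Mean log2 intensity (y axis) of 6 gene lists on each array of the 4 groups (x axis); circles are replicates 1 and 2, triangles replicates 3 and 4, and bars the mean and SD (n = 4). The club cell list lay between 9.04 and 9.57 in BALB/c OVA and between 9.81 and 10.12 in BALB/c PBS, while the goblet cell and macrophage lists were higher in BALB/c OVA than in any other group.

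Of 13 other measured host defence proteins of the airway, 8 rose and 0 fell in BALB/c, against 8.73% of all genes rising, and 5 were not called. Their median was 1.74. Lcn2, an iron-sequestering lipocalin, rose by 3.37 ± 0.44 (limma, adjusted p = 0.00011), Chia1, an acidic chitinase, by 2.70 ± 0.26 (adjusted p = 5.98e-06) and Muc5b, a gel-forming mucin, by 2.50 ± 0.34 (adjusted p = 0.000139). The lists overlap, and Muc5b is also a goblet cell gene. Of 11 goblet cell genes 8 rose and 0 fell, with a median of 2.50, among them Fcgbp, a mucus protein that binds IgG (4.67 ± 0.17, adjusted p = 3.92e-11). Both counts hold genes that passed the filter on 4 or 5 arrays, with a mean over log2 4 in BALB/c OVA alone. They were Muc4 and Itln1 among the host defence rises, and Itln1 and Slc26a4 among the goblet cell rises. The filter let them in through the group where they were high, so their rises are descriptions.

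In BALB-RAG 0 of these 13 and 0 of these 11 genes were called. Lcn2 was close to the threshold there (2.30 ± 0.44, limma, adjusted p = 0.0534) past it in 5 of the 16 fits that left out 1 array, and past it with replicate number as a block (limma, adjusted p = 0.0168). Of the 13, 1 rose with that block and 1 rose without OVA replicate 2. The difference of the responses was called for Chia1 (-3.53 ± 0.37, BALB-RAG minus BALB/c, adjusted p = 2.9e-05), Muc5b (-2.53 ± 0.48, adjusted p = 0.00394) and Fcgbp (-4.70 ± 0.23, adjusted p = 6.38e-09), and not for Lcn2 (-1.07 ± 0.63, adjusted p = 0.361).

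**Figure D3:**
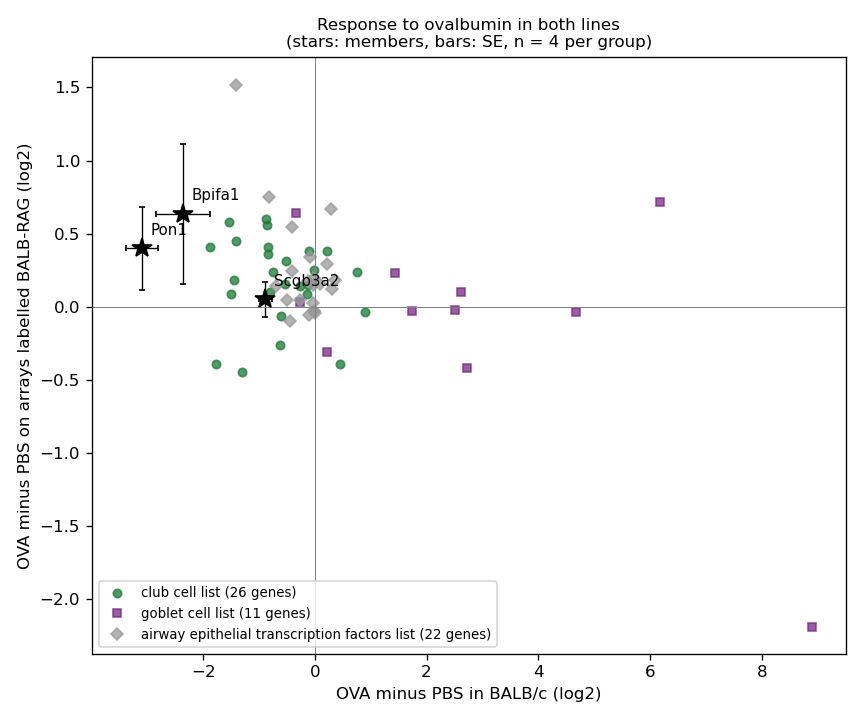
OVA minus PBS in BALB/c (x axis, log2) against OVA minus PBS on arrays labelled BALB-RAG (y axis, log2) for genes of the club cell, goblet cell and airway epithelial transcription factor lists; stars are the 3 members with SE bars (n = 4 per group). Pon1, Bpifa1 and Scgb3a2 lay left of 0 on the x axis and at 0.40, 0.64 and 0.05 on the y axis, and the grey point at the upper left is Cebpd.

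Among 22 transcription factors of airway epithelium, 2 fell in BALB/c and 0 rose, against 6.78% of all genes falling. Cebpd, a C/EBP factor that also responds to acute inflammation, fell by 1.40 ± 0.26 (limma, adjusted p = 0.00142). It rose in BALB-RAG by 1.52 ± 0.26 (adjusted p = 0.0213), a call lost in 4 of the 16 fits that left out 1 array. The responses differed by 2.92 ± 0.36 (adjusted p = 0.000131), and that call was kept in all 16. Foxa1, a forkhead factor of airway epithelium, fell by 0.69 ± 0.17 (adjusted p = 0.0113). The related Foxa2 gave -0.11 ± 0.14 (adjusted p = 0.691), and Nkx2-1 gave -0.40 ± 0.26 (adjusted p = 0.37), both named after their values were seen. Nkx2-1 was near background, with group means of 4.54 to 4.94 and 1 BALB/c OVA array under log2 4, so its missing call says little.

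The high density lipoprotein list holds proteins of the particle on which Pon1 travels and also lipases, receptors and regulators. Of 17 measured, 2 fell in BALB/c, against 6.78% of all genes, with a median of 0.05, and from 0 to 2 fell with 1 array left out. They were the endothelial lipase Lipg (-1.52 ± 0.41, limma, adjusted p = 0.0193, with 1 OVA array under log2 4 and the call lost in 3 of the 16 fits) and the lipid receptor Cd36 (-0.44 ± 0.14, adjusted p = 0.0445), whose call was lost in 12 of the 16 fits that left out 1 array. Clusterin (Clu), a carrier that binds Pon1, gave 0.55 ± 0.31 (adjusted p = 0.285). In the hepatocyte list 4 genes were measured and 3 fell in BALB/c, against the same 6.78%. Cyp2e1, an ethanol-oxidising enzyme, fell by 2.60 ± 0.43 (adjusted p = 0.000652). Vtn, a plasma adhesion protein, fell by 1.32 ± 0.38 (adjusted p = 0.0272), a call lost in 6 of the 16 fits. Fabp1, a fatty acid binding protein, was under log2 4 on 3 of the 4 OVA arrays. Of the hepatocyte list 16 genes had a realigned label. Those not tested, Apoa1 and Apoa2 among them, did not exceed the background on enough arrays. The part of these transcripts in the Pon1 values was not tested.

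Lists for other cells and tissues gave these counts in BALB/c after OVA, where 6.78% of all genes were lower and 8.73% higher. The alveolar type 1 list had 7 of 11 members lower, among them Rtkn2 (-1.03 ± 0.16, limma, adjusted p = 0.000398) and Igfbp6 (-1.39 ± 0.24, adjusted p = 0.00114). The ciliated cell list had 2 of 15 lower, the tubulin-associated Tppp3 (-1.11 ± 0.25, adjusted p = 0.00638) and the dynein Dnah11 (-0.70 ± 0.20, adjusted p = 0.0251), whose call was lost in 5 of the 16 fits. General epithelial genes had 2 of 11 higher (Spint1 and Tjp3) and 0 lower, alveolar type 2 genes 4 of 15 higher (Cd74, Il33, Fabp5 and Sftpd) and 0 lower, and basal cell genes 0 of 3 called. Macrophage genes had 9 of 13 higher, T cell genes 8 of 13, B cell genes 6 of 14 and eosinophil genes 1 of 4 (Rnase2a). Rnase2a had a mean over log2 4 in BALB/c OVA alone and passed the filter through that group, so its rise is a description. Adipose genes had 2 of 7 lower (Plin4 and Adipoq), cardiac genes 1 of 11 (Myl4) and skeletal muscle genes 0 of 10. The T cell count ranged from 3 (without OVA replicate 1 or PBS replicate 4) to 11 (without OVA replicate 3) with 1 array left out. The B cell count ranged from 3 (without any 1 of 6 of the 8 BALB/c arrays) to 11 (without BALB-RAG OVA replicate 2). The call of Sftpd was lost in 9 of the 16 fits that left out 1 array, that of Tjp3 in 7, and those of Fabp5, Plin4 and Adipoq in 3 each. The cardiac list ranged from 5.76 to 6.44 in BALB/c after OVA and from 6.92 to 8.14 after PBS, and the adipose list from 4.67 to 5.16 and from 5.25 to 6.66. With replicate number as a block 6 cardiac genes and 10 alveolar type 1 genes were lower in BALB/c. The part of any of these lists in the falls of Scgb3a2, Bpifa1 and Pon1 was not tested.

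Likeness of pattern was measured as Pearson's r of log2 intensity over the 16 arrays, which share the 4 groups, so these values are descriptions. Scgb3a2 and Pon1 were alike (r = 0.916), while Bpifa1 was less like Pon1 (0.649) and Scgb3a2 (0.384). The genes most like Pon1 were Gstm1 (0.976), Crispld2 (0.974), Cdc42bpg (0.936), Pde4d (0.935) and Gsta3 (0.927). Those most like Scgb3a2 were Gstm1 (0.956), Acvrl1 (0.954), Cbr2 (0.953), Tmem204 (0.950) and Gsta2 (0.944). Those most like Bpifa1 were Ccnd2 (0.845), Ciart (0.833), Dusp6 (0.816), Sertad1 (0.809) and Nat14 (0.803). Gstm1 led for both Scgb3a2 and Pon1 and was not among the 5 for Bpifa1.

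With each group's mean taken out, so that only the spread within groups was left, Scgb3a2 and Pon1 had r = 0.565, Bpifa1 and Pon1 0.297, and Scgb3a2 and Bpifa1 -0.190. Gstm1 again headed the genes like Pon1 (0.880), followed by Cd109 (0.859) and Cdh5 (0.844). Scgb3a2 was then nearest to Oas2 (0.881), Klra7 (0.824), with Hoxa2 between them, and Bpifa1 to Comp (0.910), Arpc5l (0.817) and Fkbpl (0.813).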

How the data were processed

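Per the labels' protocols TRIZOL was used to extract RNA, and 6 µg went into biotinylated cRNA. The authors made the values with GCRMA, per the submitters' processing notes, which name no version. As deposited they are linear intensity, from 2.32 to 35181, with medians of 18.2 to 20.5 and 52.1 to 53.5% of probe sets over log2 4 on each array. Log2 was taken and nothing was normalised again. No identical columns were found (0). The number of arrays limits the precision.

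The deposited probe set labels are shifted against the values. Labels were realigned in 3 stretches of rows, which placed 14300 of 45101. Of these, 13146 had 1 symbol in the platform annotation, 366 several (not used) and 788 none, and RefSeq changed 0 symbols. Values lie 64 rows above the labels in the first stretch, 47 rows below in the second and 16168 rows below in the third. The direction of the second stretch, which holds Scgb3a2 and Bpifa1, was given as above, and the data spoke for below. There 637 pairs of probe sets of the same gene had a median correlation of deviations of 0.529 below, 0.106 above and 0.163 as deposited. All gene names depend on this realignment.

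Genes had to exceed log2 4, taken as background, on at least 4 arrays, and the probe set with the highest mean stood for a gene, which left 7276. limma 3.58.1 in R 4.3.3 fitted 4 group means over 16 arrays (12 residual degrees of freedom), with Benjamini-Hochberg adjustment at 0.05. Exact permutations used 70 regroupings, with a smallest p of 0.0286, or 1296 within groups. On simulated data for OVA against PBS in BALB-RAG (7276 genes) 67% of changes of log2 1 and 95% of log2 2 were recovered. The simulation held 100 changed genes of each size, whereas 12 genes were called in the data. With fewer changed genes the adjustment is stricter, so recovery in the data may be lower. Same-numbered BALB/c OVA and PBS arrays deviated together (correlations 0.456, 0.385, 0.357 and 0.304), as did differently numbered ones within replicates 1 and 2 (0.422 and 0.331) and within 3 and 4 (0.359 and 0.340). The numbers may thus mark only these 2 pairs of replicates. Block values are given because every same-numbered correlation in BALB/c was above 0.1. In BALB-RAG that ground fails, since replicate 2 gave 0.025, while OVA replicate 1 with PBS replicate 2 gave 0.455. Block values for BALB-RAG, that of Lcn2 among them, are read with this limit. With the number as a block 1764 genes were called in BALB/c, against 1128. Members and gene lists were chosen with earlier results of these data known. Apart from the members, the text names up to 4 genes of a list with the smallest p in BALB/c, the relatives of the members, the 5 genes (3 within groups) most like each member, and every gene of a count of 5 or fewer. Foxa2, Nkx2-1, Cldn10 and Itln1 were named after their values were seen. Alternatives covered filters, probe set choice, scaling, labels, blocks and left-out arrays.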

Additional observations from a re-analysis of the deposited data

Results flagged for a closer look

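Single arrays stood apart from the other 3 of their group, by a gap that took up most of the group's range (Dixon's 95% limit), in 10 of the 88 sets of 4 values looked at; chance gives about 1 in 20. Pon1 did so on replicate 2 of both BALB-RAG groups, at 10.18 after OVA and 9.93 after PBS (log2 intensity). Replicate 2 of BALB-RAG OVA also stood high for the T cell list (4.95), the B cell list (6.61), the eosinophil list (4.96) and the epithelium list (8.51). The adipose list was low on replicate 3 of BALB-RAG OVA (6.55) and of BALB/c OVA (4.67). The skeletal muscle list was high on replicate 2 of BALB-RAG PBS (8.97) and replicate 1 of BALB/c PBS (8.50).

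The responses to OVA differed between the lines, by the test of the difference itself (limma, adjusted p under 0.05), for 25 of the list genes that were named. The same call was made for 8.49% of all genes. Most of the 25 were named for a small p in BALB/c, a contrast that forms part of this difference. Such a choice favours a call, here and above, so the count is a description and is not compared with that share. Values are BALB-RAG response minus BALB/c response in log2. Among club cell genes they were 1.58 for Gstm1, 2.28 for Gsta3, 1.37 for Gsta2, 1.62 for Fmo1 and 0.69 for Cbr2. Among transcription factors they were 2.92 for Cebpd, 0.83 for Foxa1 and 1.57 for Grhl1. Among alveolar type 1 genes they were 1.48 for Rtkn2, 1.95 for Igfbp6, 0.89 for Cav2 and 0.96 for Limch1. Lipg gave 2.02, Fabp1 2.06 and Cyp2e1 3.74. Values were negative for the host defence and goblet genes Chia1 (-3.53), Muc5b (-2.53), Muc4 (-1.83), Fcgbp (-4.70), Slc26a4 (-5.46), Clca1 (-11.08) and Galnt7 (-1.20), for Cd74 (-0.998) and Il33 (-1.30) of the alveolar type 2 list, and for the eosinophil gene Rnase2a (-6.63). Of these, Muc4, Slc26a4, Clca1, Rnase2a and Fabp1 had a group mean under log2 4, so their values are not fold changes. Muc4, Slc26a4 and Rnase2a had a mean over log2 4 in BALB/c OVA alone and passed the filter through that group. Of the 16 fits that left out 1 array, the call was lost in 13 for Foxa1 and for Grhl1, 10 for Lipg, 9 for Fabp1, 5 for Gsta2 and 3 for Cbr2.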

How the results depend on the processing

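In BALB-RAG the 3 members were not called under any alternative run, with adjusted p from 0.394 to 1.00 (limma), and Bpifa1 alone turned, to -0.069 within replicates 3 and 4. The count of 12 genes called there became 23 with a log2 5 filter, 21 with the mean of probe sets, 21 with arrays centred on their median, 24 with quantile normalisation, 5 with only these groups fitted, 67 with replicates 3 and 4 against 1 and 2 as a term, 3 within replicates 1 and 2, 5 within replicates 3 and 4 and 38 without replicate 2 of both groups. It was 6 to 42 with 1 array left out, the 42 without BALB-RAG OVA replicate 2. In replicates 3 and 4 against 1 and 2, Scgb3a2 turned to 0.062 (centred arrays) and 0.13 (quantile), Pon1 to 0.0034 (quantile) and 0.15 (without replicate 2 of both BALB-RAG groups), and with the labels as deposited Pon1 was called at -0.71 (limma, adjusted p = 0.000472). With 1 array left out this contrast ranged from -0.055 to 0.015 for Scgb3a2 and from -0.21 to 0.03 for Pon1.

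The replicate number as a block gave 41 genes in BALB-RAG, where same-numbered arrays did not all deviate together (correlations 0.121, 0.025, 0.478 and 0.197), 1764 in BALB/c (1128 without) and 1152 for the difference of the lines (618 without); no member's call in BALB-RAG changed. With replicates 3 and 4 against 1 and 2 as a term these counts were 1820 and 1214, and within replicates 3 and 4 they were 547 and 212. With 1 array left out they were 790 to 1168 and 414 to 687. Within replicates 1 and 2 the BALB/c values were -1.13 for Scgb3a2 and -3.76 for Pon1, and -0.64 and -2.43 within replicates 3 and 4. The differences of the lines were 1.14, 3.85 and 4.12 for Scgb3a2, Bpifa1 and Pon1 within replicates 1 and 2, and 0.73, 2.13 and 2.87 within replicates 3 and 4. The members' BALB/c falls kept their sign with each array left out.

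Labels matter most. As deposited, Pon1 gave 0.016 in BALB/c and 0.047 for the difference of the lines. In the order BALB-RAG OVA, BALB-RAG PBS, BALB/c OVA and BALB/c PBS, Scgb3a2 then read 2.44, 2.43, 2.44 and 2.82 and Bpifa1 2.77, 2.80, 2.77 and 2.87, both under background, and Pon1 read 7.02 and 6.96 in BALB-RAG and 6.60 in BALB/c PBS. With the second stretch 47 rows above, Bpifa1 gave 1.95 in BALB/c and -1.13 for the difference, its levels were 9.48, 8.67, 11.06 and 9.11, and Scgb3a2 was at 1.87, 1.87, 1.90 and 1.88. That alternative and those on lists and on replicate 2 were chosen after seeing the data. At 4 arrays a group, even changes of log2 1 can be missed (67% were recovered in the simulation), and smaller ones were not simulated.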
